A study of Rattus norvegicus with 23 samples.

Results

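Leukocyte adhesion molecules and selectins were followed in the lungs of elderly rats that had inhaled titanium dioxide (TiO2). They were the 9 genes Sele, Selp, Selplg, Icam1, Icam2, Vcam1, Itgam, Itgax and Itgb2, chosen by name, and 13 probes of the 45598 on the array carried one of these symbols. All 13 probes passed the filter on low signals, so the 9 genes were among the 23028 genes tested. Male F344 rats, 19 months old at the start, breathed either filtered air or an aerosol of TiO2 (Aeroxide P25) at 10 mg/m3 through the nose only, 6 hours a day and 5 days a week for 4 weeks. They were killed at the end of exposure (D0) or 28 days later (D28), and RNA of the accessory lung lobe was hybridised, 1 rat per array. The arrays came from 6 control and 5 exposed rats of D0, and from 6 control and 6 exposed rats of D28. For the 6 exposed D28 arrays, 1 label field says day 0 but the titles, the descriptions and the methods say day 28, and day 28 was used.

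Leukocytes leave the blood in steps. Selectins on activated endothelium (E-selectin and P-selectin) catch the sugar-decorated ligand PSGL-1, which Selplg encodes, so that leukocytes roll. Integrins on the leukocyte then bind immunoglobulin-type molecules on the endothelium, ICAMs and VCAM-1, and hold the cell before it crosses the vessel wall. The alpha chains of Itgam (CD11b) and Itgax (CD11c) each pair with the shared beta chain of Itgb2 (CD18), and both pairs are carried by macrophages, neutrophils and dendritic cells. Itgax is abundant on rodent alveolar macrophages, and resting lung endothelium carries much ICAM-2.

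All levels below are log2 processed signals after quantile normalization, in which 1 unit is a doubling, and a level of one gene cannot be set against that of another. A gene was a DEG (differentially expressed gene) when its Benjamini-Hochberg adjusted p from limma over all genes was below 0.05 and its fold change (FC) was at least 1.5. Between 69.5% and 77.9% of the probes were well above background on an array, and the 23 arrays lay on 5 slides of 1 to 7 arrays. The defining markers of lung epithelium (Sftpc, Sftpb, Ager and Scgb1a1) were well above background on all 23 arrays. Exposed and control rats of the same day shared 4 slides on D0 and 3 slides on D28.

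On D0, Sele and Itgam were over-expressed in exposed rats, 2 of the 9 genes, where 1.78% of the genes tested were DEGs and 1.09% were over-expressed DEGs. On D28, Itgam was the single DEG among the 9, where 0.756% of the genes tested were DEGs and 0.486% were over-expressed ones. The median log2 FC of the 9 genes was 0.18 on D0 and 0.11 on D28, beside -0.00078 on D0 and -0.0056 on D28 over all genes tested. Selp was higher on D0 by both of its bright probes but did not pass as a gene. Icam1, Vcam1, Selplg, Itgb2, Icam2 and Itgax were DEGs on neither day. For the counts at looser thresholds given below, 11.9% of the genes tested had an unadjusted p under 0.05 on D0 (5.61% higher and 6.34% lower) and 11% on D28 (4.82% higher and 6.18% lower), and the adjusted p alone was passed by 2.86% on D0 and 1.32% on D28.

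**Figure D1:**
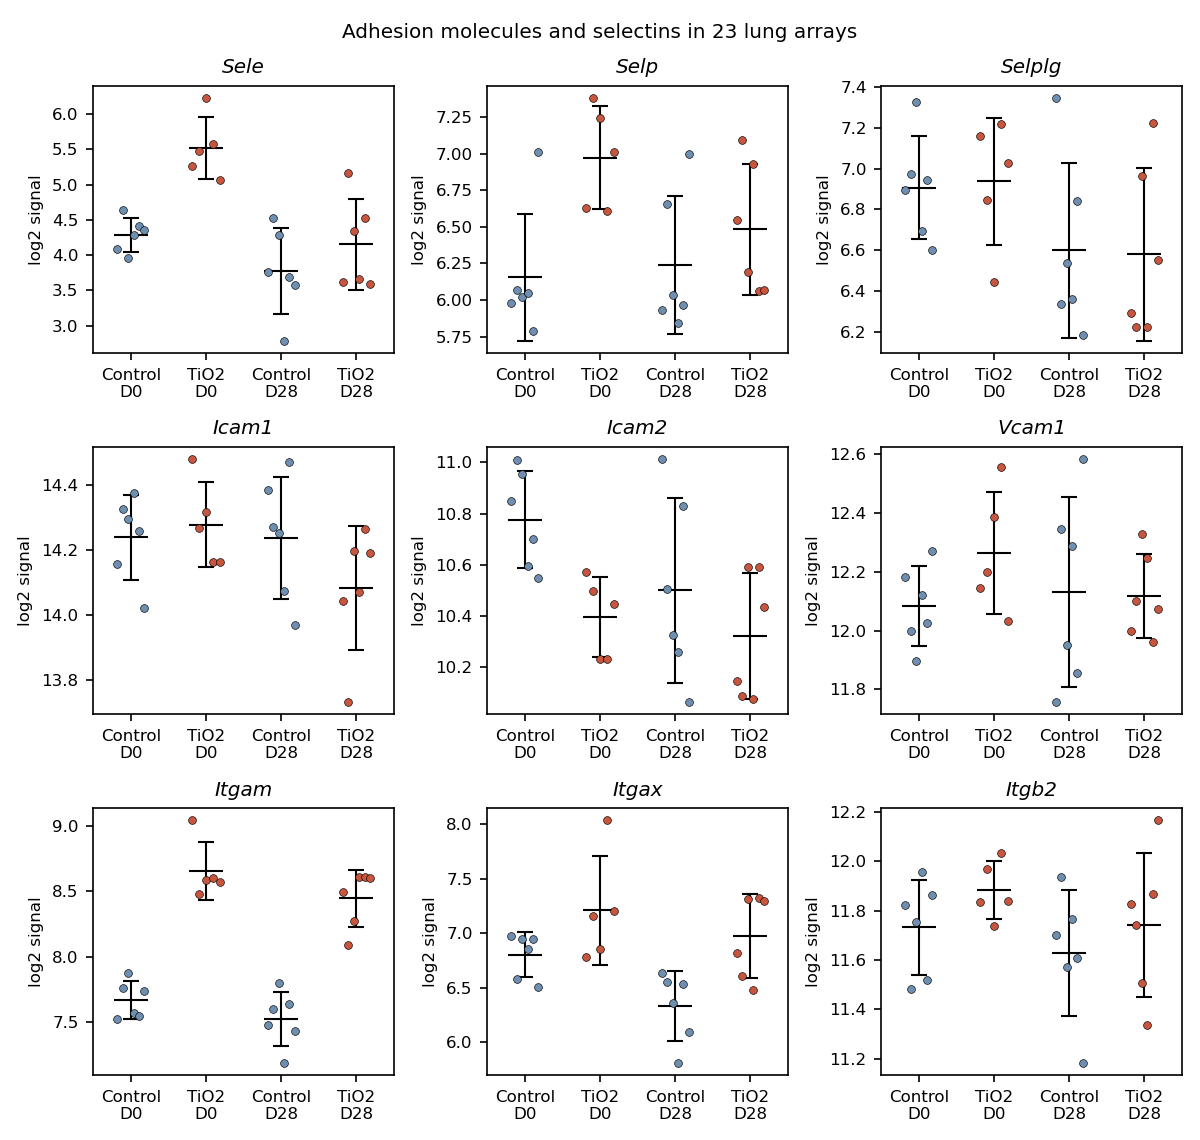
Level of each of the 9 genes (log2 signal, vertical axis) in the 4 groups, with 1 point per array, the group mean as a horizontal bar and 1 SD above and below it. The exposed arrays of Itgam lie above every control array on both days, those of Sele on D0.

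**Figure D2:**
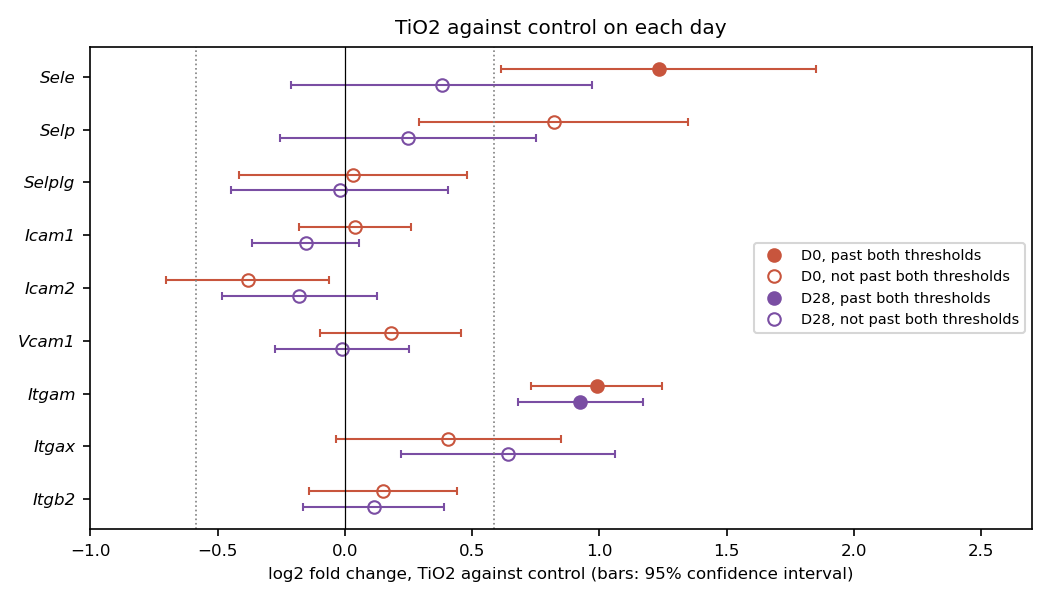
Log2 FC of the 9 genes (horizontal axis), exposed against control rats, on D0 and D28, with 95% confidence intervals from limma. Filled points passed both thresholds (Sele and Itgam on D0, Itgam on D28) and the dotted lines mark an FC of 1.5 in either direction.

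The sequences of the Selp probes, on which the call of Selp turns, are shown first. Promoter windows follow, which played no part in any call. The 2 bright Selp probes are the same 60-base sequence under different names (60 of 60 bases identical), placed by the array design at chr13:79922082-79922141 (rn4), so they are repeat measurements of 1 target. The dim Selp probe lies at chr13:79922078-79922137, and over the 56 bases that overlap it differs from the bright ones at 8. The 30-base stretch that holds 6 of the 8 differences is given 5′ to 3′, with the differing bases in capitals.
Selp, dim probe: ggGaaggtcctcCtttcgGtattttgGAcC
Selp, bright probes: ggAaaggtcctcTtttcgTtattttgTTcT

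RefSeq promoters (GRCr8) were given for 5 of the 9 genes, namely Sele, Icam1, Vcam1, Itgam and Itgax. The 250 bases before the annotated start are shown for Itgam and Sele, which were DEGs, and for Vcam1, which was not although it is often induced together with Sele. Capitals mark matches, on either strand, to GAGGAA (the core of PU.1 sites in myeloid genes), TATAAA, or the NF-kB consensus. Of 33469 promoters, 23.3% held GAGGAA, 12.9% held TATAAA and 3.54% held the NF-kB consensus in a window of this length. Itgam held GAGGAA at 151 to 146 bases before the start and its reverse at 39 to 34 bases. Vcam1 held the NF-kB consensus at 93 to 84 bases before the start and TATAAA at 60 to 55 bases, which overlaps its reverse at 62 to 57 bases. None of the 3 motifs was in the Sele or Itgax window, and the Icam1 window held TATAAA at 53 to 48 bases. A match is only a match of letters. A window without one can still hold a site that departs from the pattern, and a site outside the 250 bases was not searched for.
Itgam, chr1:192089342-192089591, plus strand: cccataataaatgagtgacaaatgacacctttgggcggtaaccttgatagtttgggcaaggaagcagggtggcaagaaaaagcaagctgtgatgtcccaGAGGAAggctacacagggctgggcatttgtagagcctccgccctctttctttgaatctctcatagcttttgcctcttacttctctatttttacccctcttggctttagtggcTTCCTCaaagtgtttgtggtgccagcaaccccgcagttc
Sele, chr13:78936264-78936513, plus strand: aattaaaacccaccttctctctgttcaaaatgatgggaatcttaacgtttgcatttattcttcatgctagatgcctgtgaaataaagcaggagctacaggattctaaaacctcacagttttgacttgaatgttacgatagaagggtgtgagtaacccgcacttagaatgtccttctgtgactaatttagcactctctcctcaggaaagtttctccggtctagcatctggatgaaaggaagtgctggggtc
Vcam1, chr2:206742784-206743033, minus strand: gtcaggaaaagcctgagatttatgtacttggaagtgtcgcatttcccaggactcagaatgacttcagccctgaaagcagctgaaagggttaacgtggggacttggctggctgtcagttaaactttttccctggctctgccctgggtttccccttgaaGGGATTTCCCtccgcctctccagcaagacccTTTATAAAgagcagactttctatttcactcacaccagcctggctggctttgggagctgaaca

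Sele, the gene of E-selectin, which endothelium makes on demand after inflammatory signals, was the member with the largest log2 FC on D0. Its level in the control rats of D0 ran from 3.95 through a median of 4.32 to 4.63. The 5 exposed rats of D0 had 5.26, 5.47, 6.23, 5.58 and 5.07. All 5 exposed rats lay above all 6 controls, as for 1.94% of the genes tested that were higher. The difference was 1.23 (SE 0.30, 95% interval 0.61 to 1.85, adjusted p = 0.0255 from limma), which is an FC of 2.35.

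On D28 the Sele levels of the control rats ran from 2.78 through 3.73 to 4.53, and those of the exposed rats from 3.58 through 4.00 to 5.16. The groups overlapped, with 2 of the 6 exposed rats above all controls. The difference was 0.38 (95% interval -0.21 to 0.97, adjusted p = 0.705 from limma). The effect on D28 was 0.85 lower than that on D0, with an interval of the difference from -1.71 to 0.01, an unadjusted p of 0.0514 and an adjusted p of 1 from limma, so the 2 days were not shown to differ. On the 1 Sele probe well above background on every array, this difference was -0.49 (95% interval -1.26 to 0.28, unadjusted p = 0.2, adjusted p = 1 from limma over the probes on their own). Among the exposed rats alone, Sele was lower on D28 than on D0 by a log2 difference of -1.37 (adjusted p = 0.0385 from limma). It was the single member called in that comparison, where 0.352% of the genes tested were DEGs and 0.139% were under-expressed ones. This comparison shares the exposed D0 rats with the comparison of D0, and days and slides were not balanced in it. In control rats Sele was also lower on D28, by -0.52 (95% interval -1.11 to 0.07, adjusted p = 0.448 from limma). The probe well above background on every array gave -0.78 in control rats (unadjusted p = 0.00612, adjusted p = 0.196 from limma over probes). In exposed rats that probe gave -1.27 (adjusted p = 0.034 from limma over probes). The D0 call was lost when 1 of 4 rats was left out: the control D0 rat 1 (adjusted p = 0.0543 from limma) or 3 (0.0571), or the exposed D0 rat 3 (0.0794) or 4 (0.0597), with a log2 FC of at least 1.06. The call among exposed rats was lost in 15 of the 23 fits that left out 1 rat, with adjusted p up to 0.116 and a log2 difference from -1.57 to -1.19.

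Within slides that held both groups, the Sele difference was 0.63, 1.33, 1.15 and 1.87 on D0. On D28 it was -0.78, 0.71 and 1.59, so that 1 slide went the other way. On that slide the probe well above background on every array read 5.48 and 5.22 in controls and 5.34 and 5.30 in exposed rats. The other probe, well above background on no D28 array, read 3.58 and 3.34 in controls and 1.98 and 1.86 in exposed rats.

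The 2 Sele probes, at chr13:79819671-79819730 and chr13:79822442-79822501 (rn4), behaved differently in one respect. The second was well above background on all 23 arrays and gave a log2 difference of 1.26 on D0 (SE 0.27, adjusted p = 0.0135 from limma over probes). In the exposed rats of D0 it ran from 6.58 to 7.06, above the control range of 4.92 to 6.21. On D28 the same probe gave 0.77 (95% interval 0.24 to 1.30, unadjusted p = 0.00675, adjusted p = 0.226 from limma). The first Sele probe was well above background on 2 of the 5 exposed D0 arrays and on no other array, so no fold is read from it. The value of the gene is the mean of both probes.

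Selp, the gene of P-selectin, which endothelium and platelets store and bring to their surface within minutes of activation, was measured by 3 probes. The dim one was well above background on 1 exposed D0 array and no other, and the 2 bright ones on all 23. On the first bright probe, controls of D0 ran from 7.79 through 8.11 to 8.94. The 5 exposed rats of D0 had 9.05, 9.36, 9.34, 9.06 and 9.24, above all controls. The second bright probe gave controls from 7.86 to 9.07 and exposed rats from 9.01 to 9.37, so that 1 control lay among the exposed rats. The log2 differences were 1.04 (SE 0.22, adjusted p = 0.0147) and 0.98 (SE 0.22, adjusted p = 0.0176), both past both thresholds in limma over probes, where 0.742% of the probes tested were over-expressed DEGs on D0 and 0.287% on D28.

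Averaged over the 3 probes, Selp gave 0.82 on D0 (SE 0.25, 95% interval 0.29 to 1.35, adjusted p = 0.0949 from limma) and was not called. It was called when the dim probe was left out by a filter on signal well above background (1.01, adjusted p = 0.00539). It was also called without the control D0 rat 6 (0.99, adjusted p = 0.0274), whose gene-level value of 7.02 lay far above the next control at 6.07. That rat was the 1 D0 control on its slide. The other arrays of that slide read 7.24 (exposed D0 rat 3), 7.00 (control D28 rat 6) and 7.10 (exposed D28 rat 2). Leaving out rat 6 kept the exposed D0 rat of that slide without its control. Within slides, the gene-level difference on D0 was 0.56, 0.72, 1.16 and 0.23, the last on the slide of rat 6. On D28 the first bright probe ran from 7.94 to 9.09 in controls and from 8.11 to 9.16 in exposed rats so that the groups overlapped. At the gene level the D28 difference was 0.25 (95% interval -0.26 to 0.75, adjusted p = 0.808 from limma). The effect on D28 minus that on D0 was -0.57 (95% interval -1.30 to 0.16, adjusted p = 1).

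**Figure D3:**
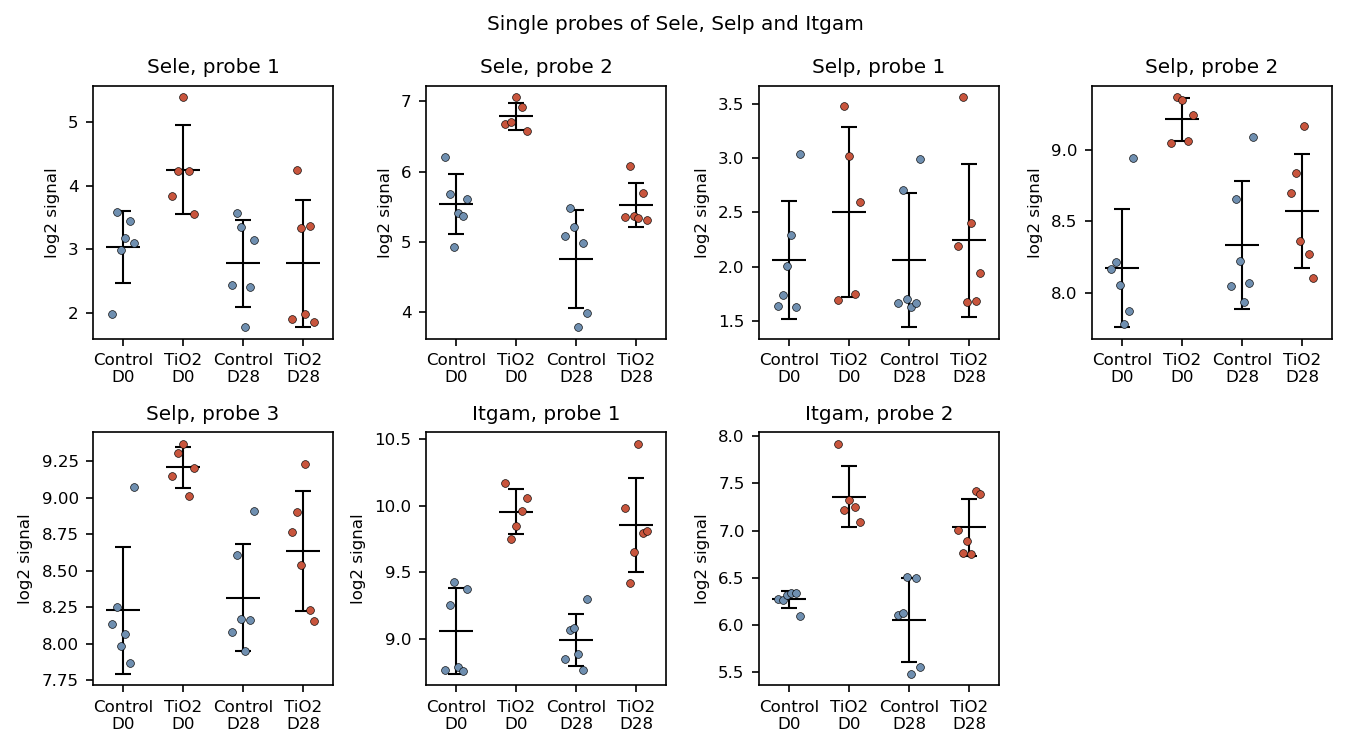
Level of each probe (log2 signal, vertical axis) of Sele, Selp and Itgam in the 4 groups, with 1 point per array, the mean and 1 SD. Sele probe 1 and Selp probe 1 lie near background, Selp probes 2 and 3 share 1 sequence, and both Itgam probes show the exposed arrays above all controls on each day.

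Selplg, whose product PSGL-1 on leukocytes is the main ligand of P-selectin, was near its control level on both days. Its levels ran from 6.60 to 7.33 in controls and from 6.44 to 7.22 in exposed rats of D0, and from 6.18 to 7.35 and 6.22 to 7.23 on D28. The log2 FC was 0.03 on D0 (95% interval -0.41 to 0.48) and -0.02 on D28 (95% interval -0.45 to 0.41), so that an FC of 1.5 in either direction lay outside both intervals. On D0 the exposed rats did not exceed the highest control (0 of 5 rats).

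Of the immunoglobulin-type ligands of the integrins, Icam1 and Vcam1, which inflamed endothelium and epithelium make more of, were DEGs on neither day. Icam1 ran from 14.02 to 14.38 in controls and from 14.16 to 14.48 in exposed rats of D0, a log2 FC of 0.04 (95% interval -0.18 to 0.26). On D28 it ran from 13.97 to 14.47 and from 13.73 to 14.27, a log2 FC of -0.15 (95% interval -0.36 to 0.06). Vcam1 gave 0.18 on D0 (95% interval -0.10 to 0.46) and -0.01 on D28 (95% interval -0.28 to 0.25). All 4 intervals exclude an FC of 1.5, and in each comparison the ranges of the groups overlapped.

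Icam2, which resting endothelium carries without induction, was the only member below its controls on D0 in log2 FC. Controls of D0 ran from 10.55 through 10.78 to 11.01. The exposed rats of D0 had 10.57, 10.50, 10.23, 10.23 and 10.45, so that 1 exposed rat lay within the control range. The log2 FC was -0.38 (95% interval -0.70 to -0.06, unadjusted p = 0.0221, adjusted p = 0.268 from limma), not past the threshold. On D28 it was -0.18 (95% interval -0.48 to 0.13, adjusted p = 0.743).

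None of 15 endothelial markers was a DEG by limma on either day. Of the 15, 14 had a log2 FC below 0 on D0 and 14 on D28, with median log2 FCs of -0.23 and -0.22. Over all genes tested, 49.9% and 48.9% had a log2 FC above 0. At an unadjusted p under 0.05 from limma, 7 were lower on D0 and 6 on D28 (6.34% and 6.18% of the genes tested), and 0 were higher. On each day 1 passed the adjusted p alone (2.86% and 1.32% of the genes tested). These were Erg, a transcription factor of endothelium, on D0 (-0.47, adjusted p = 0.0284 from limma) and Tek, the angiopoietin receptor, on D28 (-0.46, adjusted p = 0.0246). The single marker with a log2 FC above 0 was Robo4 on D0 (0.06) and the defining marker Tie1 on D28 (0.19). The summed linear signal of the 15 markers ran from 81400 to 96440 in controls and from 66930 to 85070 in exposed rats of D0. On D28 it ran from 84900 to 108300 in controls and from 70280 to 88980 in exposed rats. All 4 defining markers (Cdh5, Pecam1, Tek and Tie1) were well above background. In a lobe of many cell types, fewer cells of a type and less RNA per cell cannot be told apart, and the part of these markers in the levels of Icam2, Sele and Selp was not tested.

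Itgam, the alpha chain CD11b, was the member with the lowest p on both days. In the control rats of D0 its level ran from 7.52 through 7.65 to 7.87. The 5 exposed rats of D0 had 9.04, 8.48, 8.58, 8.60 and 8.57. In the controls of D28 it ran from 7.19 through 7.54 to 7.80, and in the exposed rats of D28 from 8.09 through 8.55 to 8.61. Every exposed rat lay above every control on both days (5 of 5 and 6 of 6), as for 0.677% of the genes tested that were higher on D28.

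The log2 FC of Itgam was 0.99 on D0 (SE 0.12, 95% interval 0.73 to 1.25, adjusted p = 0.000123 from limma) and 0.93 on D28 (SE 0.12, 95% interval 0.68 to 1.17, adjusted p = 0.0003), FCs of 1.99 and 1.90. The difference between the days was -0.06 (95% interval -0.42 to 0.29, adjusted p = 1). By p it stood at place 15 of the 23028 genes on D0 and at place 9 on D28. Both Itgam probes passed both thresholds on both days, with 0.89 and 1.09 on D0 and 0.86 and 0.99 on D28. Within slides that held both groups, the difference was 1.28, 1.07, 0.81 and 0.85 on D0 and 0.91, 0.88 and 0.66 on D28. Without any 1 of the 23 arrays it stayed between 0.89 and 1.03 on D0 and between 0.86 and 1.00 on D28, and was called each time.

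Itgax, the alpha chain CD11c, was higher in exposed rats by less, with wider spread. Its controls of D0 ran from 6.504 through 6.90 to 6.98, and the exposed rats had 6.79, 7.16, 6.86, 8.04 and 7.21, of which 3 lay above all controls. On D28 the controls ran from 5.81 through 6.45 to 6.64 and the exposed rats from 6.48 through 7.06 to 7.33, of which 4 of 6 lay above all controls. The log2 FC was 0.41 on D0 (95% interval -0.04 to 0.85, adjusted p = 0.497 from limma) and 0.64 on D28 (95% interval 0.22 to 1.06, unadjusted p = 0.00463, adjusted p = 0.146), not called on either day.

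Itgb2, the beta chain CD18 without which neither alpha chain reaches the cell surface, gave 0.15 on D0 (95% interval -0.14 to 0.44, adjusted p = 0.846 from limma) and 0.11 on D28 (95% interval -0.16 to 0.39, adjusted p = 0.854). Its levels ran from 11.48 to 11.96 in controls and from 11.74 to 12.03 in exposed rats of D0, and from 11.18 to 11.94 and 11.34 to 12.17 on D28. An FC of 1.5 lay outside both intervals.

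The genes that carry these chains are markers of several leukocytes, so lists of such markers were read beside them. Macrophage markers were higher in exposed rats for 10 of 13 genes on D0 (median log2 FC 0.47) and for 9 of 13 on D28 (median 0.19). Over all genes tested, 49.9% and 48.9% were higher. Of the 13, 2 were DEGs on D0 and 0 on D28 (1.78% and 0.756% of the genes tested). Their summed linear signal did not overlap between the groups. It ran from 21170 to 24720 in controls and from 28890 to 40360 in exposed rats of D0, and from 21170 to 24980 and 26510 to 30190 on D28. The brightest genes weigh most in such a sum, and Cd68 and C1qb had the highest log2 signals of the 13 (13.11 and 12.40 in controls of D0). Siglec1, the sialic acid receptor of macrophages, was over-expressed on D0 (0.89, adjusted p = 0.00263 from limma), as was the complement gene C1qb (0.65, adjusted p = 0.00781). The lysosomal marker Cd68 passed the adjusted p alone, with 0.55 on D0 and 0.42 on D28. The scavenger receptor gene Marco was well above background on only 2 exposed D0 arrays, and Csf1r gave 0.01 on D0 and -0.16 on D28. The part of macrophage number in the level of Itgam was not tested.

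Neutrophil markers gave no call by limma on either day in 11 measured genes, of which 1 higher and 2 lower on D0 and 1 lower on D28 had an unadjusted p under 0.05 (11.9% and 11% of the genes tested on the 2 days), with medians of -0.06 on D0 and -0.17 on D28. Among the defining ones, S100a9 gave 0.63 on D0 and 0.61 on D28 (adjusted p = 0.612 and 0.591 from limma), and Csf3r gave -0.19 and -0.10. Their summed signal overlapped between groups, from 17880 to 52190 in controls and from 12880 to 51560 in exposed rats of D0, and from 15070 to 36100 and 23470 to 62410 on D28. Of the dendritic cell markers, Clec9a was over-expressed on D0 (1.00, adjusted p = 0.0243 from limma), 1 of 7 measured, and none on D28. Over all genes tested, 1.09% and 0.486% were over-expressed DEGs. The defining dendritic cell markers Flt3 and Zbtb46 gave 0.07 and 0.02 on D0 (adjusted p = 0.974 and 0.996 from limma). Monocyte (5 genes), T and NK cell (13), B cell (6), platelet (8) and lung epithelium (11) markers gave no DEG on either day by limma, with median log2 FCs from -0.11 to 0.10. At an unadjusted p under 0.05 (11.9% and 11% of the genes tested), the lung epithelium list had 3 higher and 1 lower gene on each day. Each of the other lists had 0 or 1. The epithelial genes Sftpd, a surfactant protein (0.37, adjusted p = 0.0469 from limma), and Aqp5, a water channel (-0.47, adjusted p = 0.0318), passed the adjusted p alone on D0.

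The other genes of adhesion were read in 4 lists. In the list of rolling and selectin ligand synthesis, 0 of 17 genes were DEGs by limma on D0 and 1 was on D28 (1.78% and 0.756% of the genes tested). At an unadjusted p under 0.05 from limma, 3 were higher and 1 lower on D0 (5.61% and 6.34% of the genes tested). On D28, 2 were higher and 2 lower (4.82% and 6.18%). The list medians were 0.01 and -0.07. The DEG was Tpst1, a tyrosine sulfotransferase that modifies PSGL-1, with 0.65 on D28 (SE 0.15, adjusted p = 0.0364 from limma) and 0.39 on D0 (adjusted p = 0.277). The sialyltransferase gene St3gal4, which helps to build selectin ligands, passed the adjusted p alone on D0 (0.50, adjusted p = 0.0156).

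In the list of other leukocyte integrins, their ligands and activators, 0 of 16 genes were DEGs on either day by limma, where 0 passed an unadjusted p of 0.05 on D0 (11.9% of the genes tested) and 1 did on D28 (11%), with medians of -0.01 and -0.05. Itgal, which pairs with Itgb2 to form LFA-1 of lymphocytes, gave 0.03 on D0 and 0.48 on D28 (adjusted p = 0.996 and 0.581). Among 11 measured genes of transmigration, medians were -0.14 and -0.18. On D0, 1 higher and 3 lower had an unadjusted p under 0.05 (5.61% and 6.34% of the genes tested). On D28, 1 higher and 2 lower did (4.82% and 6.18%). Pecam1, Esam and Cdh5 of this list were also endothelial markers above. By limma 1 gene was over-expressed on each day (1.09% and 0.486% of the genes tested) and none was under-expressed. It was Cd177 both times, a surface protein of neutrophils that binds PECAM-1 and Mac-1, with an FC of 2.14 on D0 (adjusted p = 0.028 from limma) and of 2.09 on D28 (adjusted p = 0.0425). All 6 exposed rats of D28 lay above all controls, as for 0.677% of the genes tested, and 4 of 5 of D0 did.

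In the list of inducers of endothelial adhesion molecules, 1 of 15 genes was a DEG by limma on D0 and 0 on D28 (1.78% and 0.756% of the genes tested). At an unadjusted p under 0.05 from limma, 2 were higher and 1 lower on D0 and 1 higher on D28 (11.9% and 11% of the genes tested). The list medians were 0.10 and 0.13. Tnf, the cytokine that induces E-selectin, ICAM-1 and VCAM-1 on endothelium, was over-expressed on D0 (1.06, SE 0.22, adjusted p = 0.00889 from limma). All 5 of 5 exposed rats lay above all controls, as for 1.94% of the genes tested. On D28 Tnf gave 0.26 (adjusted p = 0.737). Il1b gave 0.01 and 0.10, with no adjusted p under 0.05. The lower gene on D0 was Nfkbia, which encodes an inhibitor of NF-kB, with 4 of 5 exposed rats below all controls. It was not a DEG (-0.49, unadjusted p = 0.0493, adjusted p = 0.415 from limma). Of the same list, Nfkbiz and Tnfaip3 gave 0.10 and 0.08 on D0 (adjusted p = 0.962 and 0.963 from limma).

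**Figure D4:**
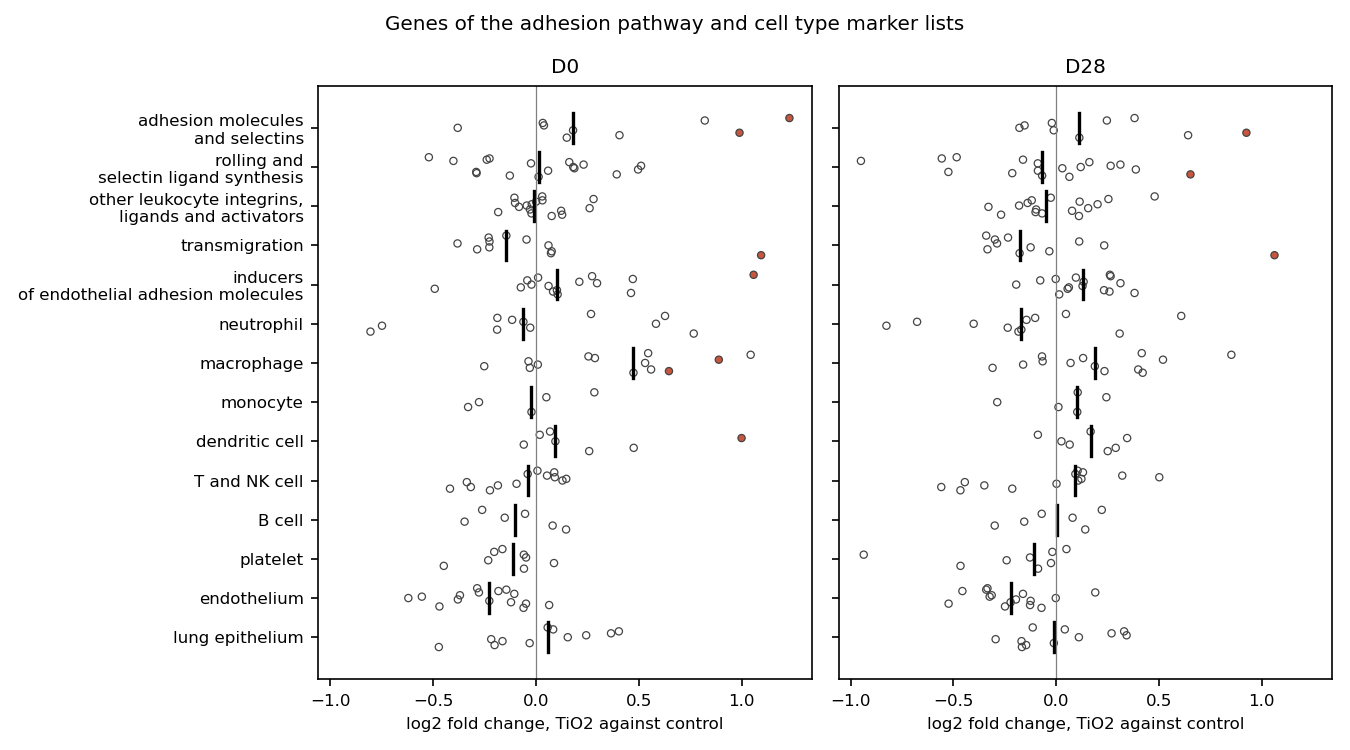
Log2 FC (horizontal axis), exposed against control rats on D0 and D28, of each gene of the 9 adhesion molecules and selectins, the 4 adhesion lists and the 9 marker lists, with 1 circle per gene and the list median as a bar. Filled circles passed both thresholds. The median of the macrophage list was 0.47 on D0 and that of the endothelium list -0.23.

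Between control rats of D28 and D0, none of the 9 genes was called by limma, where 0.608% of the genes tested were DEGs, and 1 of the 9 had an unadjusted p under 0.05, as had 13.3% of the genes tested. That gene was Itgax, with a log2 difference of -0.47 (unadjusted p = 0.0302, adjusted p = 0.319). In the difference of the TiO2 effects between the days, 0 of 9 were called and 0 had an unadjusted p under 0.05, where 0.0304% of the genes tested were called and 3.44% had such a p. Log2 values of 7 of the 9 genes were lower on D28 than on D0 in control rats and all 9 in exposed rats, with medians of -0.15 and -0.21. Over all genes tested, 48.9% and 47.3% were higher on D28, with medians of -0.0058 and -0.0135.

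Genes that deviated from their group means most like a member, over the 23 arrays, are given as a description with no test, since arrays share RNA quality and slides. For Itgax they were Myo1f, Itgal and Inpp5d (Pearson's r = 0.926, 0.914 and 0.896). For Icam2 they were Ramp2, Dbndd2 and Ankmy2 (r = 0.935, 0.928 and 0.92), and for Selplg LOC498276, Ctsz and Syngr2 (r = 0.945, 0.932 and 0.931). For Itgam they were Tspo, Dok3 and RGD1562690 (r = 0.826, 0.792 and 0.756), and for Itgb2 Cyfip2, Tmem144 and Aspa (r = 0.862, 0.827 and 0.81). For Sele they were Unc13a, Map7d2 and Nav3 (r = 0.801, 0.788 and 0.756), and for Selp Insyn2b, LOC102557538 and Limd1 (r = 0.896, 0.883 and 0.852). For Icam1 they were Ifitm2, ATP6 and RGD1306746 (r = 0.911, 0.885 and 0.878), and for Vcam1 Smchd1, Zc3h8 and Zdhhc16 (r = 0.861, 0.842 and 0.83). No gene of one member's list was another member.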

How the data were processed

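Lung RNA was measured on single-colour Agilent rat arrays. The authors deposited scanner intensities for each array, corrected for background within the array but not normalized between arrays (Feature Extraction 11.0.1.1 per the labels, 12.0.1.1 in the header of 1 file), and 1 table of all arrays holding quantile normalized median intensities (identical sorted columns).

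Here, spots flagged as outliers were dropped. The log2 signals came from the 40417 probes that exceeded, on at least 5 arrays, the 95th percentile of 308 negative control spots, and were quantile normalized. Spots, then the probes of a symbol, were averaged. Symbols came from the 1 file of the later software, since 3 of the 13 probes had none in the other files. One limma (3.58.1, R 4.3.3) model of 4 group means was fitted across all genes and tested on simulated data. Rats are the replicates, and array number limits precision. The methods name a batch correction without naming the batch, and none was used. The 9 genes and all lists were chosen with earlier results of these data known. Named list genes were the DEGs, defining markers and examples in list order, with gaps. St3gal4, Erg, Robo4, Nfkbia, Nfkbiz, Tnfaip3, Sftpd and Aqp5 were named after their values were seen.

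Alternatives were 75th percentile scaling, normexp (offset 50), the deposited table, other filters, other probe rules, other arrays or variance models, array weights, slide or replicate blocks, and leaving out each array. One gene of the lists and one probe sequence are not reported here.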

Additional observations from a re-analysis of the deposited data

Results flagged for a closer look

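Of the 36 sets of values (9 genes in 4 groups), 2 held an array whose gap to its nearest neighbour was large for the range of its group by Dixon's ratio, and chance alone marks about 5% of such sets. Selp in the control D0 rat 6 was 7.02, with the next control at 6.07 and the median of the others at 6.02. The arrays of the other groups on its slide read from 7.00 to 7.24. Itgam in the exposed D0 rat 1 was 9.04, with the next exposed rat at 8.60 and the median of the others at 8.58. Without the first, the Selp difference on D0 was 0.99 (adjusted p = 0.0274 from limma). Without the second, Itgam on D0 was 0.89 and was still called.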

How the results depend on the processing

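Itgam stayed a DEG on both days under every alternative with a test, each probe alone and each left-out array included. Under the settings that used all arrays of a contrast and no single dimmer probe it had a log2 FC from 0.73 to 1.02 on D0 and from 0.66 to 0.93 on D28, and without 1 array from 0.89 to 1.03 and from 0.86 to 1.00. Sele on D0 failed the adjusted p in 4 of the 23 fits without 1 array (up to 0.0794) and on its dim probe alone (0.234), passed it under the other alternatives with a test, and missed the FC limit after normexp (0.45), which left 1 of the 9 genes called there. Among exposed rats between the days, Sele was not called after normexp or with only the exposed arrays (0 genes each). Leaving out 1 array gave from 1 to 3 called genes on D0, from 0 to 1 among exposed rats and 1 on D28 each time. Selp on D0 was called in 5 of 11 alternatives that left out no single array of the contrast. These were the deposited table, the filter on probes well above background, the brightest probe, array weights and the slide block (0.61, 1.01, 0.98, 1.00 and 0.75). In the others its adjusted p from limma was up to 0.105. Of the 23 fits without 1 array, 1 called it, and the adjusted p from limma reached 0.235. With the replicate block, 2 genes were called on D0 and 1 on D28 as before, and Sele among exposed rats still. Replicate numbers did not pair the rats: correlations of deviations over 22 same-numbered pairs ran from -0.301 to 0.455.

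Under the alternatives with a test, and apart from Sele on D28, signs turned for values close to 0. Differences within single slides, which had no test, turned sign more widely. For example, Itgb2 on D0 gave -0.13 on a slide, and Vcam1 on D28 ran from -0.48 to 0.34 between slides. Selplg on D0 gave -0.022 with array weights and -0.017 with the replicate block, and from -0.036 to 0.16 without 1 array, and on D28 0.00042 with the deposited table and from -0.15 to 0.13 without 1 array. Icam1 on D0 gave -0.038 after normexp, -0.050 with the deposited table and from -0.012 to 0.068 without 1 array. Vcam1 on D28 gave 0.0021 with 75th percentile scaling, 0.013 after normexp, 0.0029 with the deposited table, 0.021 with array weights, 0.045 with the slide block and from -0.086 to 0.079 without 1 array. Sele on D28, 0.38 as the mean of its probes, came out at -0.0039 on the dim probe, which was well above background on no D28 array and gives no fold. For the difference between days, Itgb2 gave 0.0015 with array weights, and leaving out 1 array gave from -0.13 to 0.044 for Itgb2, from -0.13 to 0.032 for Itgam and from -0.18 to 0.095 for Selplg. In control rats between the days, Selp gave -0.013 with the deposited table and from -0.069 to 0.26 without 1 array, Icam1 gave 0.023 with array weights, 0.018 with the slide block and from -0.049 to 0.051 without 1 array, and Vcam1 gave -0.0019 with array weights, -0.031 with the slide block and from -0.043 to 0.12 without 1 array.

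Of all genes, 411 were DEGs on D0 (221 after normexp, 658 with no FC limit) and 174 on D28 (94 after normexp, 42 with only the D28 arrays, 303 with no FC limit, from 111 to 203 without 1 array). In the difference between days 7 were DEGs (14 after normexp, 13 with the filter on probes well above background, 12 with trend and robust estimation, from 6 to 11 without 1 array), among exposed rats 81 (28 with only their arrays, 128 with the slide block) and in control rats 140 (from 87 to 198 without 1 array). The difference between days needs all 4 groups, so it has no fit restricted to the arrays of 1 day or 1 treatment. The causes of these changes were not tested. Signal near background limits the first Sele and the dim Selp probe.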
